A study of Mus musculus with 8 samples.

Results

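The glutathione and NRF2 redox genes described here are the genes that the deposited annotation places in the KEGG map of glutathione metabolism, together with 6 partner genes of the same defence. Genes that the annotation also places in the peroxisome map were left out (Idh1, Idh2 and Gstk1), as were Chac1, Rrm1, Rrm2 and Rrm2b. Nqo1, Txnrd1, Srxn1, Hmox1, Ftl1 and Fth1 were added by name. This gave 62 genes of 34745 in the tables, 56 from the map and 6 by name. They were followed in crypts, the glands of the intestinal lining, taken on day 5 from wild-type (WT) C57BL/6 mice. The DSS+CA group, 4 libraries, received dextran sulfate sodium (DSS) together with CA, spelled out in the series title as cholic acid, which is a primary bile acid. The DSS group, 4 libraries, received DSS without CA. Both groups thus received DSS, a sulfated sugar polymer used in mice as a model of colitis, and no group without DSS was compared. The question put by the design was what cholic acid changes in the transcripts of crypts from DSS-treated mice, which the series title calls colitic. The labels give no gut segment, route, dose, sex or age, nor whether replicates are separate animals, so p-values measure the spread between libraries alone, and that spread may be technical.

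Glutathione is a small thiol peptide made from glutamate, cysteine and glycine, and it is the main soluble antioxidant of most cells. Glutathione peroxidases use it to reduce peroxides, glutathione S-transferases (GSTs) attach it to electrophiles, and glutathione reductase returns the oxidised form to use at the expense of NADPH. Many of these enzymes are transcribed under NRF2, the product of Nfe2l2, a factor that KEAP1 holds at low level until oxidants or electrophiles modify KEAP1. In the intestinal lining this system meets dietary electrophiles, bile acids and the oxidants of inflammation.

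Total counts were between 13334012 and 17973196 per library, and the 62 genes took 0.846% to 1.71% of them in DSS+CA and 0.758% to 1.53% in DSS. The libraries DSS+CA 3, DSS 2 and DSS 3 stood apart from the rest. Their counts fell on shorter genes, with a mean counted gene length of 1423 to 1448 bases against 1719 to 2412 bases in the other 5, and they lay at the same end of the first principal component, which held 51.9% of the variance. Mitochondrially encoded transcripts took 9.72%, 14.1%, 20.5% and 13.2% of the counts in DSS+CA, against 16.2%, 27.7%, 17.8% and 19.8% in DSS. With those genes left out before scaling, the median log2 fold change of the tested members was again 0.343.

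The markers of small intestinal enterocytes far outweighed those of the colon. The 9 enterocyte markers summed to 39490 to 87410 CPM in DSS+CA and 31040 to 85260 CPM in DSS. In this paragraph, CPM is counts scaled to the library total alone, mitochondrially encoded transcripts included. The marker sums are thus not on the TMM scale used for the gene levels below. The 6 colonocyte markers summed to 254.5 to 369.7 CPM in DSS+CA and 186.4 to 368.5 CPM in DSS, and of these Hoxb13 and Car1 had at most 3 counts over all 8 libraries. A colonic origin is thus not borne out by these markers, and injury was not measured here. The summed T and NK cell markers were 140 to 802 CPM in DSS+CA and 665 to 1596 CPM in DSS, and the summed goblet cell markers were 3644 to 4843 CPM in DSS+CA and 6589 to 9555 CPM in DSS. The summed tuft cell markers were 13.1 to 36.5 CPM in DSS+CA and 25.2 to 58.7 CPM in DSS. The summed Paneth cell markers were 4758 to 11310 CPM in DSS+CA and 5901 to 26030 CPM in DSS. The summed B and plasma cell markers were 16.4 to 30.9 CPM in DSS+CA and 48.4 to 62.5 CPM in DSS. The part of these marker differences in the results below was not tested, and in bulk samples fewer cells of a type cannot be told apart from less RNA per cell.

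Transcripts of Gclc, which starts glutathione synthesis, of the reductase Gsr and of the alpha class transferases Gsta1, Gsta2 and Gsta4 were higher in every DSS+CA library than in any DSS library. Their folds were 2.79, 1.85, 2.67, 2.44 and 1.77. The transferase Gstt1 was lower in every DSS+CA library, and the peroxidase Gpx1 averaged 1.81-fold lower with overlapping groups. None of these differences passed the threshold over all genes. Of the 62 genes, 49 were abundant enough to test, with a deposited FPKM (counts per gene length and library total) of 1 or more in 4 or more libraries, and 13 were not. Of the 49, 45 reached that level in all 8 libraries, and the other 4 (Gsta3, Oplah, Gpx3 and Sms) reached it in libraries of both groups. By edgeR's quasi-likelihood test, 0 of the 49 were called higher and 0 were called lower at an adjusted p under 0.05, against 0.0404% and 0.0908% of all 9913 tested genes. At an unadjusted p under 0.05, 7 were higher (Gclc, Gsr, Gsta1, Gsta2, Gsta4, Gstm3 and Nqo1) and 1 was lower (Gpx1), against 2.97% and 4.85% of all tested genes. The groups did not overlap for 7 genes higher in DSS+CA (Gclc, Gsr, Gsta1, Gsta2, Gsta4, Nqo1 and Srxn1) and 1 gene lower (Gstt1), against 3.24% and 2.81% of all tested genes. The log2 fold change was above 0 for 29 of the 49 and below 0 for 20, with a median of 0.343, while 51.9% of all tested genes lay above 0 and their median was 0.0183.

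DESeq2, run on the same genes, called 3 members higher (Gclc, Gsta1 and Gsta2) and 0 lower, against 0.515% and 1.71% of all its genes. Without the 3 libraries that stood apart, edgeR called 12 members higher, against 2.36% of all genes. These were Gclc, Gsta1 to Gsta4, Gstm1 to Gstm4, Nqo1, Odc1 and Srm. Gpx1 was then the 1 member called lower, against 4.25% of all genes. That fit compares 3 DSS+CA libraries with 2 DSS libraries. With the counted gene length of each library as a term in the fit of all 8, 7 members were called higher (Gclc, Gsta1, Gsta2, Gsta3, Mgst1, Mgst2 and Nqo1) and 0 lower, against 2.97% and 3.27% of all genes.

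**Figure D1:**
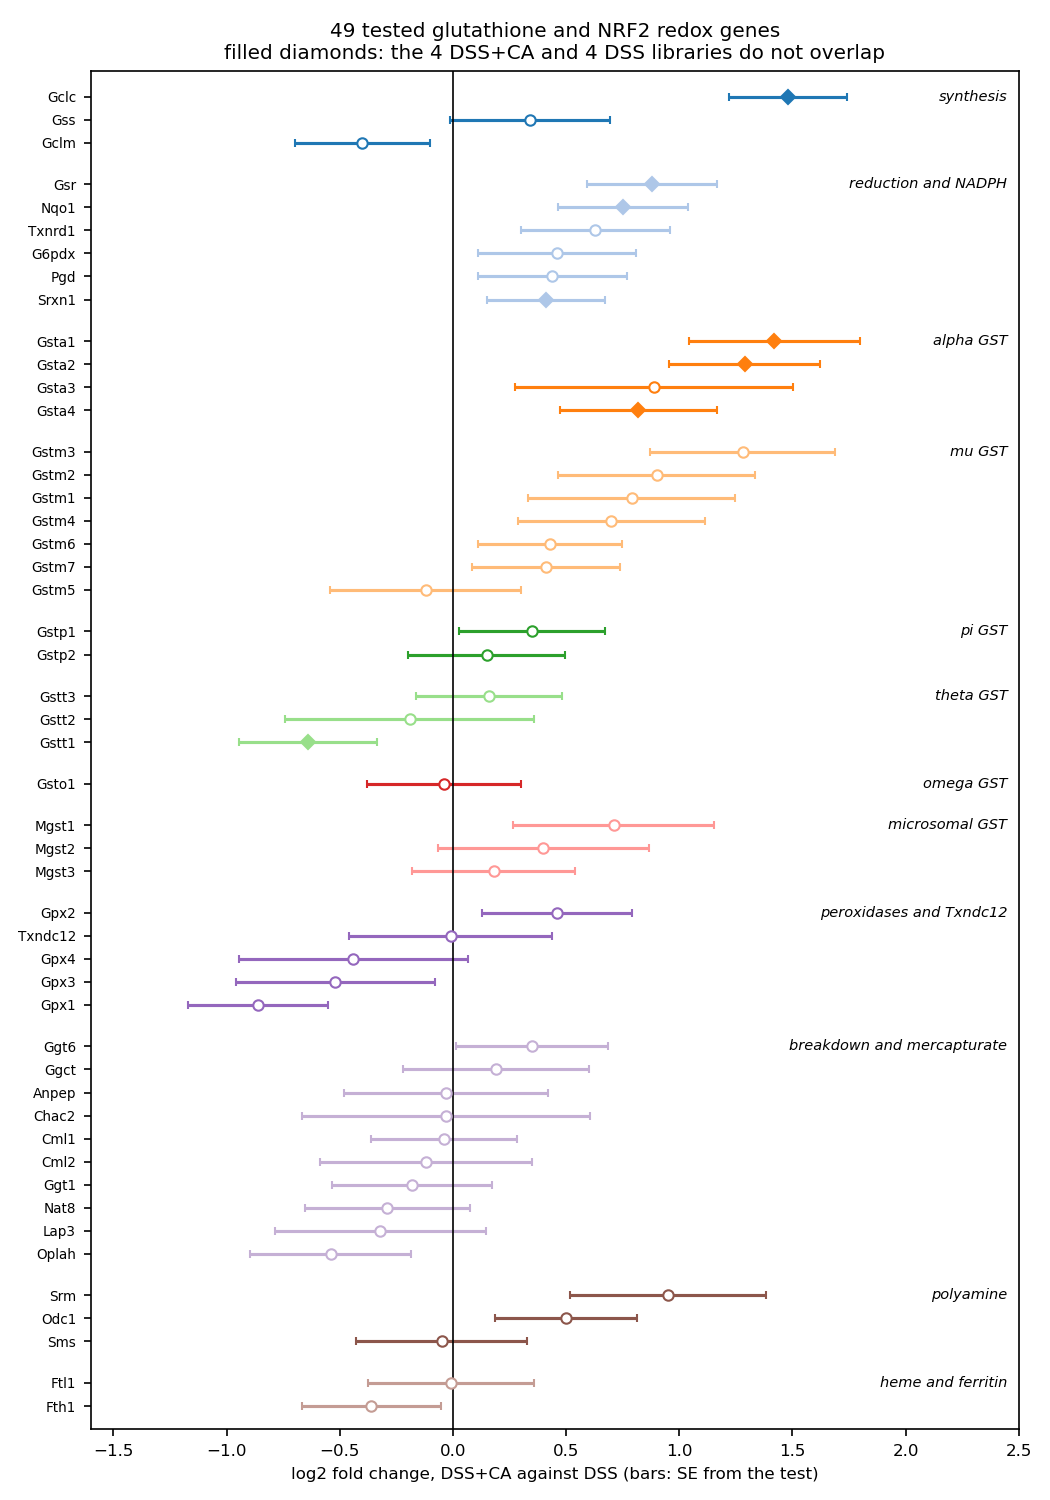
Log2 fold change of the 49 tested genes, DSS+CA against DSS (horizontal axis), by role (vertical axis), with bars for the SE derived from the test. Filled diamonds mark the 8 genes whose groups do not overlap. Gclc lies highest at 1.48, all 4 alpha GSTs and all 6 genes of reduction and NADPH supply lie above 0, and Gpx1 lies lowest at -0.86.

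The first enzyme of glutathione synthesis was split between its subunits. Gclc (ENSMUSG00000032350, chr9:77754535-77794485 on GRCm38) encodes the catalytic subunit of glutamate-cysteine ligase, the rate-limiting enzyme of the pathway. Its level was 104, 105, 82.0 and 119 CPM in DSS+CA 1 to 4, against 42.7, 31.2, 34.8 and 38.1 CPM in DSS 1 to 4. Here and below, CPM is counts scaled to library size by the TMM method. The lowest DSS+CA library lay well above the highest DSS library. The fold was 2.79 (log2 fold change 1.48, SE 0.262), and its adjusted p of 0.0502 lay just outside the threshold. The log2 fold change stayed between 1.40 and 1.57 when any single library was left out, and the adjusted p then ran between 0.039 and 0.238. It was 1.40 without the 3 libraries that stood apart (adjusted p = 0.0121).

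Gclm (chr3:122245557-122270732) encodes the modifier subunit, which raises the affinity of the ligase for glutamate and eases its inhibition by glutathione. It held 42.2, 37.6, 45.3 and 41.4 CPM in DSS+CA, against 85.4, 47.8, 41.8 and 45 CPM in DSS. DSS 1 stood far above the other 7 libraries, which lay within a narrow band and overlapped. The log2 fold change was -0.40 (SE 0.297), and -0.11 without DSS 1. Gss, the synthetase of the second step, held 115, 111, 188 and 136 CPM in DSS+CA, against 53.5, 117, 158 and 105 CPM in DSS. Its groups overlapped (log2 fold change 0.34, SE 0.354).

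The ratio of Gclc to Gclm within a library does not depend on the scaling of libraries. On FPKM it was 5.98, 6.77, 4.38 and 6.93 in DSS+CA, against 1.21, 1.58, 2.01 and 2.04 in DSS. Every DSS+CA library lay above every DSS library, and the mean log2 ratio was 1.82 higher. This ratio was picked after the values of both genes were seen, so it is given as a description without a test.

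**Figure D2:**
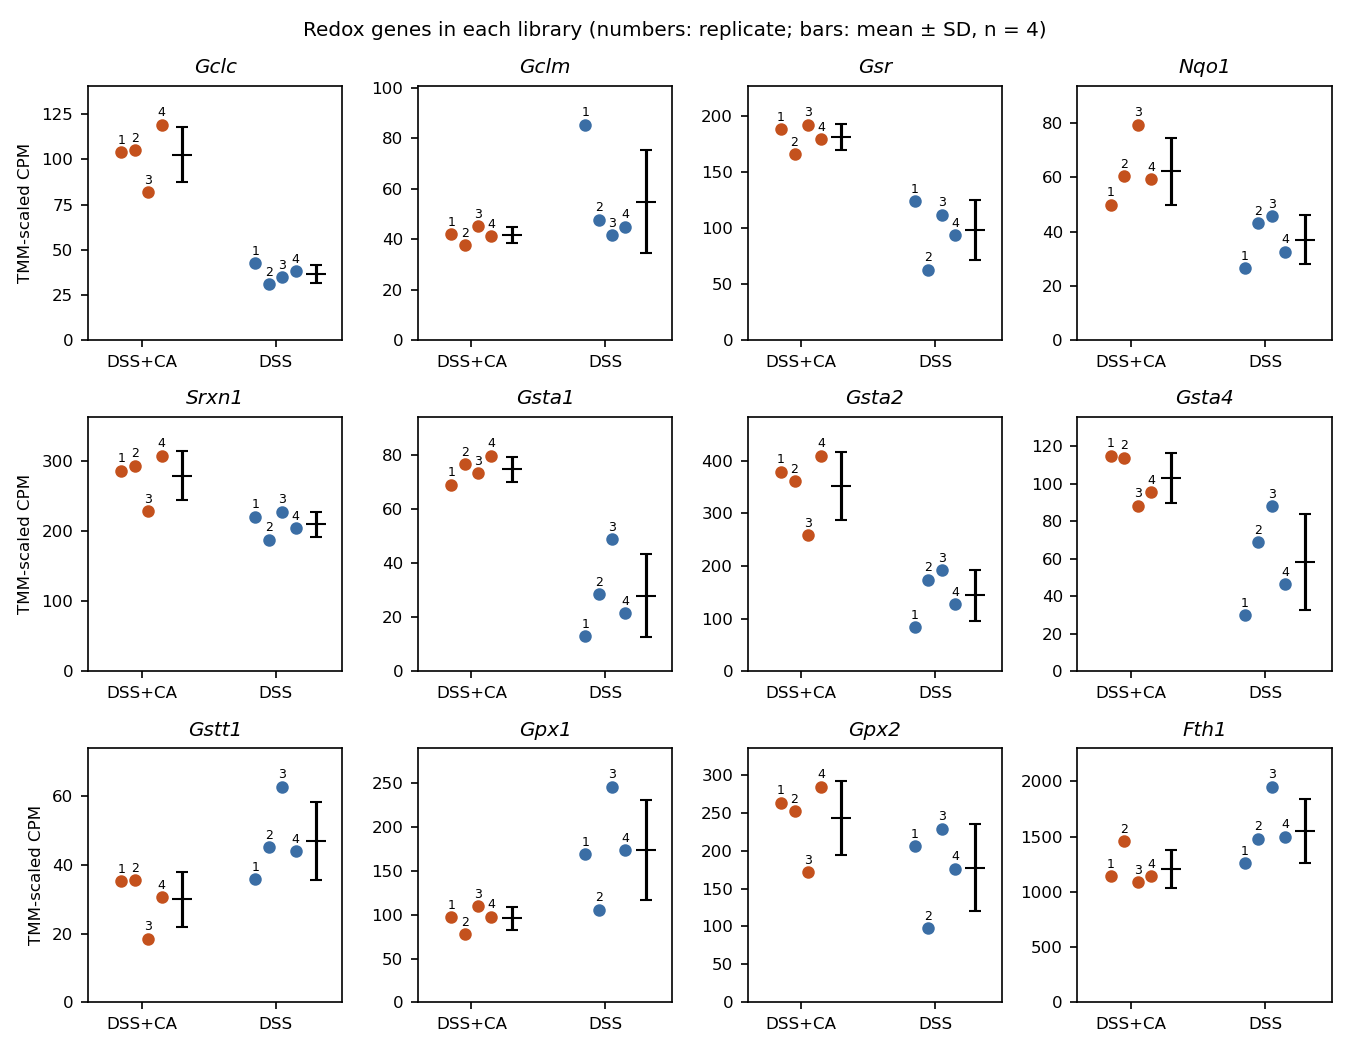
TMM-scaled CPM of 12 genes (vertical axes, each from 0) in the 4 DSS+CA (left) and 4 DSS (right) libraries. Points are libraries with their replicate number, and bars are mean ± SD. The groups are apart for Gclc, Gsr, Nqo1, Srxn1, Gsta1, Gsta2, Gsta4 and Gstt1, and overlap for Gclm, Gpx1, Gpx2 and Fth1.

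All 6 tested genes of disulfide reduction and NADPH supply had log2 fold changes above 0, with a median of 0.545. None of the 6 passed the threshold over all genes. Gsr (chr8:33652523-33698163), glutathione reductase, held 188, 166, 192 and 179 CPM in DSS+CA, against 124, 63.1, 112 and 94.0 CPM in DSS. The DSS+CA libraries were tightly grouped and all lay above DSS 1, the highest of the DSS libraries. The fold was 1.85 (log2 fold change 0.88, SE 0.286, adjusted p = 0.33). Nqo1 (chr8:107388225-107403206), a quinone reductase that is a classical NRF2 target, held 49.9, 60.4, 79.3 and 59.2 CPM in DSS+CA, against 26.5, 43.2, 45.6 and 32.6 CPM in DSS. Its groups were also apart, by a smaller margin, with DSS+CA 1 nearest to DSS 3 (log2 fold change 0.75, SE 0.287, adjusted p = 0.479).

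Srxn1 (chr2:152105516-152111376), sulfiredoxin, which repairs over-oxidised peroxiredoxins, held 287, 294, 229 and 308 CPM in DSS+CA, against 221, 188, 228 and 205 CPM in DSS. Only 1 CPM separated DSS+CA 3 from DSS 3, so the groups barely failed to overlap (log2 fold change 0.41, SE 0.261, adjusted p = 0.848). Txnrd1, the cytosolic thioredoxin reductase, held 357, 328, 185 and 336 CPM in DSS+CA, against 242, 121, 211 and 205 CPM in DSS. DSS+CA 3 lay far below the other DSS+CA libraries and within the DSS range (log2 fold change 0.63, SE 0.33, adjusted p = 0.726). Within libraries, the ratio of Txnrd1 to Gsr on FPKM was 1.66, 1.73, 0.839 and 1.64 in DSS+CA, against 1.70, 1.67, 1.64 and 1.90 in DSS. The reductases of thioredoxin and glutathione thus kept a ratio between 1.64 and 1.90 in 7 libraries and not in DSS+CA 3.

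NADPH for both reductases comes in large part from the pentose phosphate pathway. G6pdx, its first enzyme, held 74.3, 64.8, 30.4 and 72.8 CPM in DSS+CA, against 59.8, 29.6, 40.7 and 46.2 CPM in DSS. Pgd, the next dehydrogenase to make NADPH, held 433, 377, 195 and 339 CPM in DSS+CA, against 265, 173, 310 and 240 CPM in DSS. The groups overlapped for both genes. Their log2 fold changes were 0.46 (SE 0.347) for G6pdx and 0.44 (SE 0.331) for Pgd, and DSS+CA 3 was the lowest DSS+CA library for both.

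Of the 23 GST genes, 20 were tested, and 16 of them had log2 fold changes above 0, with a median of 0.422. None was called. The alpha class conjugates products of lipid peroxidation and many xenobiotics. Its 4 members had a median log2 fold change of 1.09, and 3 of them had groups that did not overlap. Gsta2 (ENSMUSG00000057933, chr9:78331018-78355788) was the most abundant, with 379, 361, 259 and 409 CPM in DSS+CA, against 84.1, 174, 192 and 127 CPM in DSS. Gsta1 (ENSMUSG00000074183, chr9:78230656-78242684) held 69.0, 76.4, 73.3 and 79.6 CPM in DSS+CA, against 13.0, 28.6, 48.8 and 21.5 CPM in DSS. For both genes DSS 1 was the lowest library and DSS 3 came nearest to the DSS+CA libraries. The fold was 2.44 for Gsta2 (log2 fold change 1.29, SE 0.333, adjusted p = 0.173) and 2.67 for Gsta1 (1.42, SE 0.378, adjusted p = 0.184).

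These 2 genes cannot be counted independently with certainty. Of the 50-base words in the GENCODE M21 transcripts of Gsta1, 90.5% also occur in transcripts of another gene, 75.7% in Gm3776 and 46.6% in Gsta2, and for Gsta2 the share is 49.8%. How the authors' counting assigned such reads is not given in the sources used here. Gsta4 shares none of its words with another gene and so carries no such doubt. Gsta4 (chr9:78191966-78209348), whose product acts on the peroxidation product 4-hydroxynonenal, held 115, 114, 88.4 and 95.7 CPM in DSS+CA, against 30, 69.1, 88.2 and 46.4 CPM in DSS. DSS+CA 3 and DSS 3 differed by less than 1 CPM, and the other libraries were clearly apart (log2 fold change 0.82, SE 0.346, adjusted p = 0.559). Gsta3 was scarce, averaged 18.2 ± 11.2 CPM in DSS+CA and 9.80 ± 8.97 CPM in DSS, and overlapped (log2 fold change 0.89, SE 0.615).

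The promoters of Gsta1 and Gsta2 are shown because these genes lie close to each other on chromosome 9 and had similar fold changes. Each window runs from 250 bases before to 50 bases after the RefSeq start on GRCm38.p6, 5′ to 3′ in the direction of the gene. The Gsta1 window is chr9:78230419-78230718 on the plus strand, and the Gsta2 window is chr9:78347096-78347395 on the minus strand.
Gsta1: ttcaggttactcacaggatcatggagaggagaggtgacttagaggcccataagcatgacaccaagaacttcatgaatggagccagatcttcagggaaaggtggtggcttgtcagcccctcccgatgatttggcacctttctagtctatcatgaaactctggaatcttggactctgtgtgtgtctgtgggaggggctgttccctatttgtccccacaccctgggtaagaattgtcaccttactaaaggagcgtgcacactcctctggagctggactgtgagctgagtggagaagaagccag
Gsta2: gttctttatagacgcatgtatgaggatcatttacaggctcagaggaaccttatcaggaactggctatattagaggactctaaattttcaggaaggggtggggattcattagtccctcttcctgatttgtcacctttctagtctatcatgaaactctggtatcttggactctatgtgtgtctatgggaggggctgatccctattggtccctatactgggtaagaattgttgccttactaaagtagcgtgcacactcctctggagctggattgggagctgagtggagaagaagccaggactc
A global alignment of the windows had 232 identical bases in 311 columns (74.6%). Neither window held the core of the antioxidant response element as searched below.

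**Figure D3:**
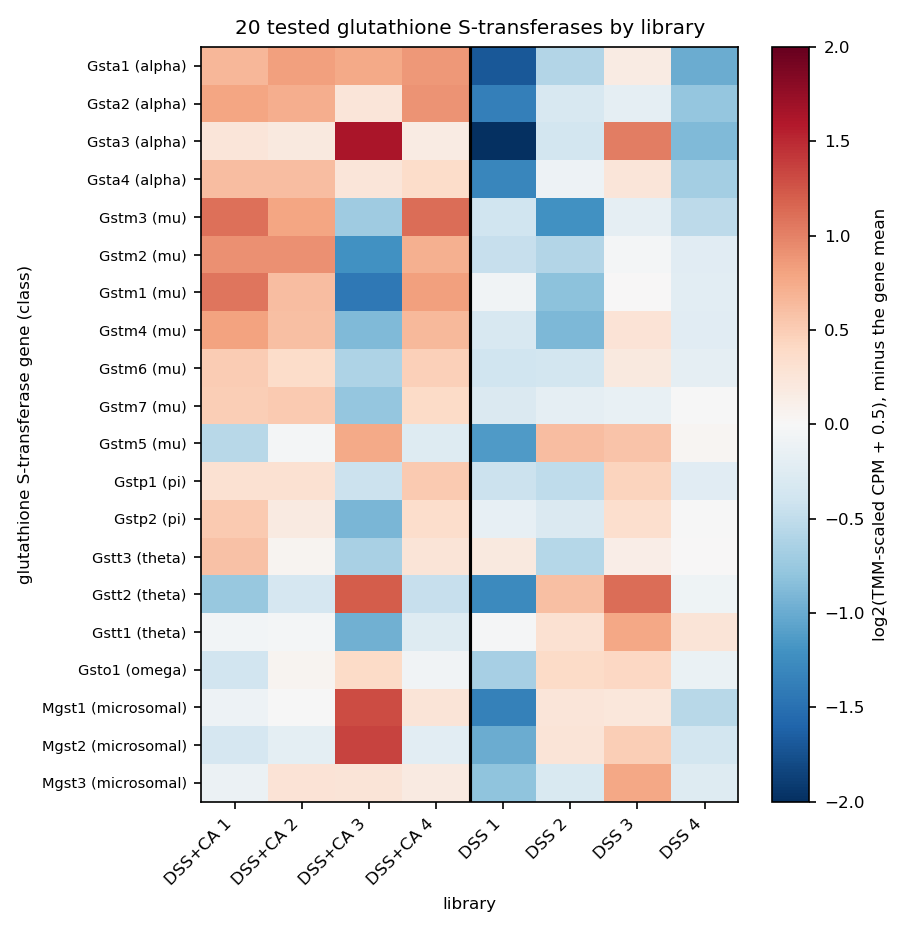
Heat map of the 20 tested GST genes (rows, by class) in the 4 DSS+CA libraries (left) and the 4 DSS libraries (right). Colour gives log2(TMM-scaled CPM + 0.5) minus the mean of the gene over all 8 libraries, red above and blue below. Alpha class rows are above their mean in all DSS+CA libraries, whereas mu class rows apart from Gstm5 are below it in DSS+CA 3.

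Mu class enzymes conjugate epoxides and other electrophiles. Of the 7 genes, 6 had log2 fold changes above 0 (median of the 7 genes 0.703), yet the groups overlapped for all 7, since DSS+CA 3 was the lowest DSS+CA library for 6 of them. Gstm3 held 170, 137, 48.1 and 172 CPM in DSS+CA, against 60.0, 33.9, 69.4 and 54.6 CPM in DSS. DSS+CA 1, 2 and 4 stood far above the DSS libraries, while DSS+CA 3 lay inside the DSS range (log2 fold change 1.28, SE 0.409, adjusted p = 0.323). Without DSS+CA 3, Gstm3 passed the threshold (adjusted p = 0.0461). Gstm1 held 77.0, 56.0, 13.2 and 64.4 CPM in DSS+CA, against 34.3, 20.4, 36.5 and 31.1 CPM in DSS, and its DSS+CA 3 value was the lowest of all 8. Its log2 fold change was 0.79 (SE 0.457). The counts of both genes are less certain, as 28.8% of the words of Gstm3 and 18.9% of those of Gstm1 occur in other genes. Gstm2, Gstm4, Gstm6 and Gstm7 had log2 fold changes between 0.41 and 0.90, and Gstm5 had -0.12.

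Gstp1, the abundant pi class enzyme, held 178, 178, 107 and 206 CPM in DSS+CA, against 107, 101, 196 and 122 CPM in DSS, with overlapping groups (log2 fold change 0.35, SE 0.324). It shares 33.7% of its words, all with Gstp2, so their counts cannot be fully separated, and Gstp2 had a log2 fold change of 0.15. Gstt1 (chr10:75783813-75798584), a theta class enzyme that acts on small halogenated compounds, was the only tested member whose DSS+CA libraries all lay below the DSS libraries. It held 35.3, 35.7, 18.6 and 30.7 CPM in DSS+CA, against 35.9, 45.3, 62.8 and 44.1 CPM in DSS. The gap was narrow, with DSS+CA 2 just under DSS 1 (log2 fold change -0.64, SE 0.305, adjusted p = 0.669). Gstt2 and Gstt3 overlapped, at log2 fold changes of -0.19 and 0.16, as did Gsto1 of the omega class, with 389, 529, 665 and 481 CPM in DSS+CA and 321, 662, 679 and 462 CPM in DSS (log2 fold change -0.04, SE 0.339).

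The microsomal GSTs are membrane enzymes that also reduce lipid peroxides. Mgst1 held 311, 334, 829 and 398 CPM in DSS+CA, against 131, 394, 390 and 227 CPM in DSS (log2 fold change 0.71, SE 0.445). Mgst2 held 169, 188, 549 and 185 CPM in DSS+CA, against 108, 255, 300 and 166 CPM in DSS (log2 fold change 0.40, SE 0.465). For both, DSS+CA 3 stood far above every other library, the reverse of its place among the mu class genes. Mgst3 held 259, 338, 335 and 316 CPM in DSS+CA, against 160, 226, 479 and 234 CPM in DSS, with DSS 3 above all other libraries (log2 fold change 0.18, SE 0.36). Leaving out DSS+CA 3 turned the log2 fold change of Mgst2 to -0.20.

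Glutathione peroxidases had mostly negative log2 fold changes. With Txndc12, an endoplasmic reticulum thioredoxin relative that the map includes, 5 genes of this group were tested, 4 of them with log2 fold changes below 0 and a median of -0.439. Gpx1 (chr9:108338903-108340343), the ubiquitous cytosolic selenoenzyme, held 97.6, 78.2, 110 and 97.8 CPM in DSS+CA, against 169, 106, 246 and 174 CPM in DSS. Only DSS 2 fell inside the DSS+CA range, so the groups overlapped by that single library (log2 fold change -0.86, SE 0.308, adjusted p = 0.419). Gpx2 (chr12:76792335-76795554), the selenoenzyme typical of the gut epithelium and known as an NRF2 target, held 263, 252, 172 and 284 CPM in DSS+CA, against 206, 97.9, 229 and 176 CPM in DSS. Its groups overlapped and its log2 fold change was 0.46 (SE 0.33).

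Set against each other within a library, the 2 enzymes were apart. The ratio of Gpx2 to Gpx1 on FPKM was 8.60, 10.3, 5.01 and 9.29 in DSS+CA, against 3.90, 2.94, 2.97 and 3.23 in DSS. All DSS+CA libraries lay above all DSS libraries, DSS+CA 3 by the least, and the mean log2 ratio was 1.31 higher. This ratio, too, was picked after the values were seen and is untested. Its size depends on the deposited gene lengths, while its difference between the groups does not. Gpx4, which reduces peroxides within membranes, held 92.1, 153, 236 and 150 CPM in DSS+CA, against 62.6, 211, 419 and 162 CPM in DSS, and overlapped (log2 fold change -0.44, SE 0.505). Its counts are uncertain, since 34.7% of its words occur in the copy Gpx4-ps2, and the sign turned without DSS 3 (0.12). Gpx3, the secreted enzyme, was scarce, with 1.69, 3.16, 0.92 and 2.29 CPM in DSS+CA and 2.74, 1.83, 4.11 and 2.99 CPM in DSS (log2 fold change -0.52, SE 0.439). Txndc12 overlapped at a log2 fold change of -0.01.

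**Figure D4:**
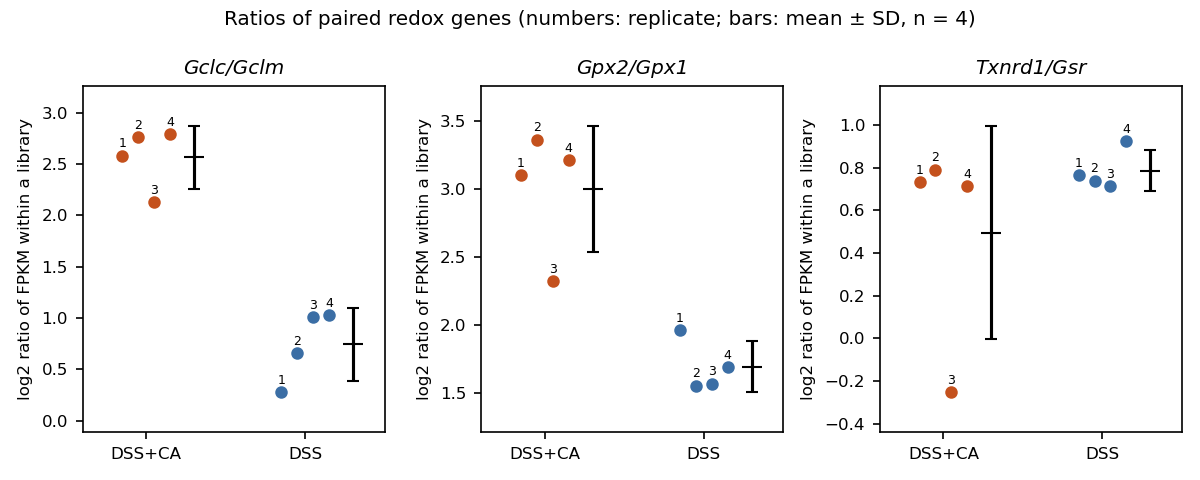
Log2 ratio of FPKM between 2 genes within each library, for Gclc to Gclm, Gpx2 to Gpx1 and Txnrd1 to Gsr, in DSS+CA (left) and DSS (right), with mean ± SD bars and replicate numbers. The 2 groups are apart for Gclc to Gclm and Gpx2 to Gpx1, and overlap for Txnrd1 to Gsr, where DSS+CA 3 stands alone. The vertical axes do not start at 0.

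Genes of the breakdown of glutathione and its conjugates had mostly small negative log2 fold changes. Of 10 tested genes, 2 had log2 fold changes above 0 and 8 below, with a median of -0.0805, and the groups overlapped for all 10. Ggt1, the surface transferase that opens extracellular glutathione, held 534, 644, 576 and 583 CPM in DSS+CA, against 484, 449, 1140 and 585 CPM in DSS, so DSS 3 alone stood apart (log2 fold change -0.18, SE 0.355). Anpep, a brush border aminopeptidase that finishes this cleavage, held 5700, 4090, 2120 and 5250 CPM in DSS+CA, against 6750, 2310, 3340 and 5090 CPM in DSS. In both groups its libraries spread widely, DSS+CA 3 and DSS 2 being the lowest (log2 fold change -0.03, SE 0.451). Lap3, a cytosolic aminopeptidase, held 583, 739, 1870 and 887 CPM in DSS+CA, against 613, 2020, 1330 and 1130 CPM in DSS (log2 fold change -0.32, SE 0.466). Here DSS+CA 3 and DSS 2 were the highest.

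Oplah, which returns 5-oxoproline to glutamate, held 7.29, 5.63, 4.70 and 8.34 CPM in DSS+CA, against 10.4, 4.88, 12.6 and 10.1 CPM in DSS. Only DSS 2 lay inside the DSS+CA range (log2 fold change -0.54, SE 0.357). Ggct, which produces 5-oxoproline, held 10.7, 17.1, 31.0 and 10.2 CPM in DSS+CA, against 9.21, 21, 16 and 14.3 CPM in DSS, and overlapped (log2 fold change 0.19, SE 0.41). Ggt6, Chac2, Cml1, Cml2 and Nat8, the last of which acetylates cysteine conjugates, had log2 fold changes between -0.29 and 0.35.

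The map also holds polyamine enzymes, because spermidine can be joined to glutathione in some organisms. Odc1, ornithine decarboxylase, the first enzyme of polyamine synthesis, held 243, 247, 193 and 257 CPM in DSS+CA, against 130, 123, 260 and 152 CPM in DSS. Only DSS 3 overlapped with the DSS+CA libraries (log2 fold change 0.50, SE 0.315). Pseudogene copies share 24.3% of the words of Odc1, so its count is less certain. Srm, spermidine synthase, averaged 19.3 ± 7.59 CPM in DSS+CA and 10 ± 4.75 CPM in DSS (log2 fold change 0.95, SE 0.434), and Sms had a log2 fold change of -0.05.

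Ferritin stores iron, and its genes are known NRF2 targets. Fth1, the heavy chain, held 1140, 1460, 1090 and 1140 CPM in DSS+CA, against 1260, 1480, 1950 and 1500 CPM in DSS. Only DSS+CA 2 lay in the DSS range (log2 fold change -0.36, SE 0.306, adjusted p = 0.925). Ftl1, the light chain, held 416, 386, 377 and 601 CPM in DSS+CA, against 430, 312, 748 and 296 CPM in DSS, with a log2 fold change of -0.01 (SE 0.367) whose sign changed between settings. The copy Ftl1-ps1 shares 47.3% of the words of Ftl1. Hmox1, heme oxygenase 1, an enzyme often induced with NRF2, lay below the test filter. It had 50 counts in the 4 DSS+CA libraries and 30 counts in the 4 DSS libraries, that is 0.845, 0.569, 1.64 and 0.491 CPM in DSS+CA and 0.427, 0, 0.989 and 0.564 CPM in DSS, with overlap.

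The levels of the members spanned a wide range. On FPKM averaged over all 8 libraries, Fth1 was highest at 1580, followed by Anpep at 735, Mgst3 at 264, Lap3 at 259, Gpx2 at 207, Gstp1 at 204, Gsto1 at 203 and Gsta2 at 176. Gclc (21.7 FPKM) exceeded Gclm (5.99 FPKM) on this average, and Gpx2 exceeded Gpx1 (39.1 FPKM). These orders depend on the gene lengths behind the deposited FPKM, which for Gpx1 and Ftl1 were longer than the locus. In mean CPM, Gpx2 and Gpx1 held 243 and 95.8 in DSS+CA, and 177 and 174 in DSS. In DSS+CA the mean FPKM of Gsta2 was 264, against 87.0 in DSS. The 12 other untested genes besides Hmox1 were Hpgds, Gstt4, Gsto2, Ggt5, Ggt7, Gm853, Gpx5, Gpx6, Gpx7, Gpx8, G6pd2 and Gm11128. Gstt4 and Gm853 had 0 counts in all libraries. Gpx5 had 0 counts in DSS+CA and 4 in DSS. Hpgds, a sigma class GST that makes prostaglandin D2, had 29 counts in DSS+CA and 160 in DSS, with 0.37, 0.253, 1.53 and 0.164 CPM in DSS+CA, against 1.89, 5.87, 0.685 and 2.42 CPM in DSS. Only DSS+CA 3 lay inside the DSS range. Tuft cells express Hpgds, and the summed tuft cell markers are given above. Their part in the Hpgds counts was not tested.

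NRF2 acts through antioxidant response elements (AREs), and promoter windows were available for 50 of the 62 members, 70 windows in all. The ARE core TGACNNNGC, searched on both strands, was present in 13 of the 70 windows (18.6%), against 12.4% of the 32851 windows of all genes. Counted by gene, 11 of 50 members (22%) held it, against 14% of all genes. The stricter core TGACTCAGC occurred in 0 of the 70 windows and in 0.454% of all windows. The related AP-1 motif TGANTCA occurred in 5 of the 70 windows (7.14%), against 7.81% of all windows, and 0 ARE core matches overlapped an AP-1 match. A match is a string of letters and not a bound site, and a window without a match speaks only for its 300 bases and the letters searched. The string TGAGTCAGC, held by the windows of Srxn1, Gstp1 and Gstp2, was counted as AP-1 and not as an ARE core. The members with a match were Srxn1, Txnrd1, G6pdx, Pgd, Gclm, Ggct, Ggt1, Gsta3, Gstm5, Gstm7 and Mgst1. Of the 7 genes whose DSS+CA libraries all lay above the DSS libraries, only Srxn1 was among them, and Gclc, Gsr and Gsta4 had no window.

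The windows of Srxn1, Gclm and Nqo1 are shown as a member with a match and higher DSS+CA libraries, a member with a match and no such difference, and a classical target without a match in this window. Capitals mark the ARE core, which in both cases reads on the strand opposite to the one printed. In Srxn1 (chr2:152105274-152105573, plus strand) the match lies in the 50 bases after the start, and in Gclm (chr3:122245307-122245606, plus strand) it lies in the 250 bases before it. The Nqo1 window is chr8:107403156-107403455 on the minus strand. The Srxn1 window also held 2 AP-1 matches.
Srxn1: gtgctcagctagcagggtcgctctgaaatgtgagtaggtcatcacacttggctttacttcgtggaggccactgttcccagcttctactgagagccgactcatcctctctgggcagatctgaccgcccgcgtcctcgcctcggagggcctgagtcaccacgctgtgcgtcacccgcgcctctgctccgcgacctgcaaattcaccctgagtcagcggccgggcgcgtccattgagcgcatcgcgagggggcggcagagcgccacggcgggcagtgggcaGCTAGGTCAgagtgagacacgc
Gclm: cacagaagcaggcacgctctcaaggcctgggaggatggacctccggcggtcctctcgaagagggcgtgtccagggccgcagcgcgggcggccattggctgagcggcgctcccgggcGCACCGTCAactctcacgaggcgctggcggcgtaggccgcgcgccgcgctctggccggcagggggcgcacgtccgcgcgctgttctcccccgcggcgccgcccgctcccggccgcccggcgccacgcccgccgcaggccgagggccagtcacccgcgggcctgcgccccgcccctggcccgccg
Nqo1: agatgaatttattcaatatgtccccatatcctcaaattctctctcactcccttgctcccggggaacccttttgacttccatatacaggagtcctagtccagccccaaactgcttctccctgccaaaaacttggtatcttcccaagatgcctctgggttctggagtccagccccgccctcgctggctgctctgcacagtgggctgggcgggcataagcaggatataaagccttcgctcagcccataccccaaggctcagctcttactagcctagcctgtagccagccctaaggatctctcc
The log2 fold changes of these genes were 0.41 for Srxn1, -0.40 for Gclm and 0.75 for Nqo1.

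Transcripts of NRF2 itself and its regulators had a median log2 fold change near that of all genes. Of 13 listed genes 10 were tested, 0 were called in either direction, 5 had log2 fold changes above 0 and 5 below, and the median was 0.0133. Nfe2l2 held 220, 169, 168 and 163 CPM in DSS+CA, against 191, 145, 138 and 170 CPM in DSS, and overlapped (log2 fold change 0.16, SE 0.264). Keap1, the inhibitor of NRF2, had a log2 fold change of -0.02 (SE 0.33), and Bach1, a repressor at the same elements, had -0.14 (SE 0.348). Nfe2l1, a related factor known for proteasome and lipid genes, held 30.6, 21.5, 10 and 25.3 CPM in DSS+CA, against 82.5, 12.9, 66.3 and 68.8 CPM in DSS. DSS 2 lay among the DSS+CA libraries and the other DSS libraries lay far above them (log2 fold change -1.40, SE 0.52, adjusted p = 0.461). Maff and Mafg, small partners of NRF2, had log2 fold changes of 0.26 and 0.28.

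Among 25 further NRF2 targets, 19 were tested, 13 with log2 fold changes above 0 and a median of 0.236. Of the 19, 3 had groups apart, all higher in DSS+CA, against 3.24% of all tested genes. By edgeR 1 was called higher, against 0.0404% of all tested genes. This was Akr1b8, an aldo-keto reductase, with 19.6, 19.4, 22.8 and 21.2 CPM in DSS+CA and 2.93, 5.64, 6.09 and 3.21 CPM in DSS. Its lowest DSS+CA library lay far above its highest DSS library (fold 4.65, log2 fold change 2.22, SE 0.33, adjusted p = 0.0285). Me1, the cytosolic malic enzyme, another source of NADPH, had a log2 fold change of 1.44 (adjusted p = 0.082) with groups apart, and Cbr3, a carbonyl reductase, had 1.21 with overlap. Slc7a11, the cystine importer, lay below the filter, with 165 counts in DSS+CA and 31 in DSS. Its level was 0.74, 3.23, 4.29 and 3.16 CPM in DSS+CA, against 1.16, 0.381, 0.152 and 0.282 CPM in DSS, and DSS+CA 1 lay below DSS 1.

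Thioredoxins and peroxiredoxins form the other main thiol defence of the cell. Of 14 tested thioredoxin, peroxiredoxin, glutaredoxin, dismutase and catalase genes, 0 were called and the median log2 fold change was 0.0198. The groups were apart for 1 of the 14, higher in DSS+CA, against 3.24% of all tested genes. This was Prdx3, the mitochondrial peroxiredoxin, at 95.7, 100, 75.6 and 119 CPM in DSS+CA and 45.9, 53.2, 52.3 and 47.0 CPM in DSS. Its log2 fold change was 0.98 (SE 0.259, adjusted p = 0.181). Catalase (Cat) had -0.38 (SE 0.289) and glutaredoxin (Glrx) -0.82 (SE 0.617) on the same scale. Of 14 tested genes of cysteine and methionine supply, 0 were called. Cth, which makes cysteine from cystathionine, held 118, 166, 138 and 217 CPM in DSS+CA, against 52.8, 90.1, 54.8 and 60.9 CPM in DSS. Its groups were apart (log2 fold change 1.31, SE 0.309, adjusted p = 0.131). The transporters Slc1a4 and Slc6a6 had log2 fold changes of 0.96 and 0.75 with overlap.

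Genes of selenocysteine incorporation, needed to make Gpx1, Gpx2, Gpx3, Gpx4 and Txnrd1 proteins, and iron genes were also read. Of 10 listed genes of selenoprotein synthesis 7 were matched and tested, 0 were called, and Sepsecs, Eefsec and Pstk had log2 fold changes of 0.79, 0.36 and 0.17. Of 11 tested iron genes 0 were called, 9 had log2 fold changes above 0 and the median was 0.351. Slc11a2, the iron importer DMT1, held 68.0, 151, 97.0 and 57.2 CPM in DSS+CA, against 46.2, 22.9, 49.7 and 43.1 CPM in DSS, with groups apart (log2 fold change 1.20, SE 0.376, adjusted p = 0.299). Tfrc, the transferrin receptor, and Cybrd1, a ferric reductase, had log2 fold changes of 1.04 and 1.49 with overlap. Of 12 tested genes of the ATF4 amino acid stress response, Atf4 itself among them, 10 lay above 0 with a median of 0.988. By edgeR 1 of the 12 was called higher, against 0.0404% of all tested genes. This was Psat1, of serine synthesis (log2 fold change 2.48, adjusted p = 0.0285). Asns and Atf5 had log2 fold changes of 1.85 and 2.33. The groups were apart for 3 of the 12 (Psat1, Asns and Atf5), all higher in DSS+CA, against 3.24% of all tested genes.

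**Figure D5:**
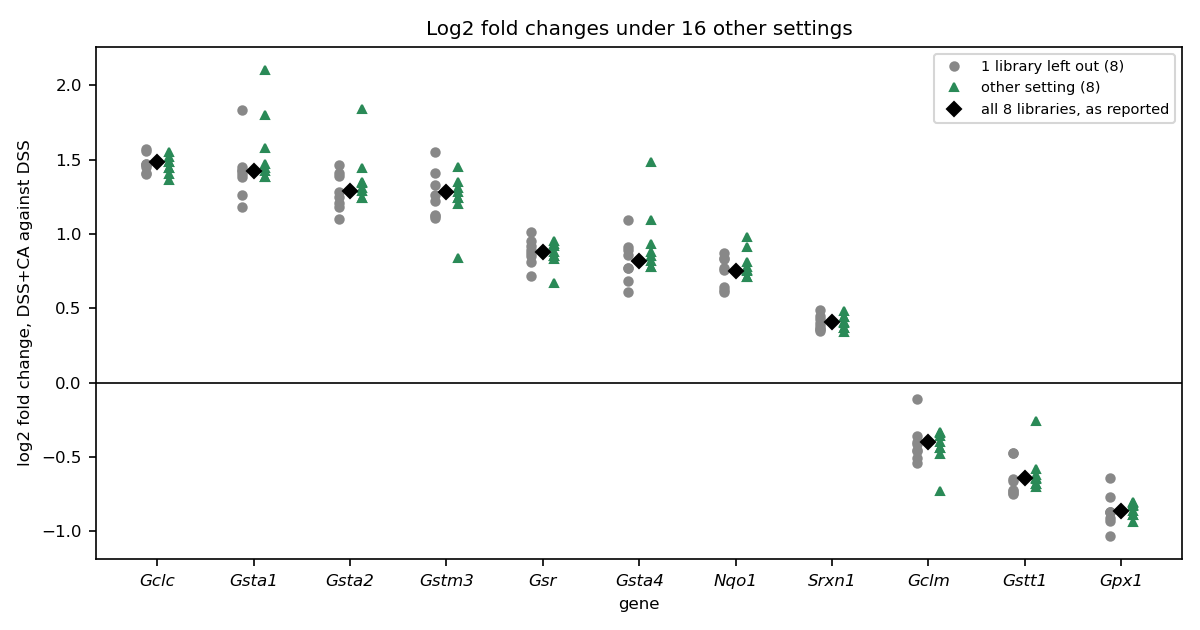
Log2 fold changes of 11 members, DSS+CA against DSS (vertical axis), with all 8 libraries (black diamonds), with each library left out in turn (8 grey circles per gene) and under the 8 other settings (green triangles). No gene shown crosses 0, and Gclc stays between 1.36 and 1.57, whereas Gsta1 reaches 2.10 without the 3 libraries that stood apart.

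Leaving out each library in turn kept the sign of the log2 fold change in 31 of the 49 tested members, against 53.3% of all tested genes. DSS+CA 3 was the highest or the lowest DSS+CA library for 44 of the 49 (89.8%), and for 88.0% of all tested genes. Gclc was the member closest to the threshold, and it was called with RLE scaling, with DESeq2, without the filter, without mitochondrially encoded genes, with the length term, without DSS+CA 3 and without the 3 libraries that stood apart. The share of all genes called higher was then 0.0706% with RLE scaling, 0.0925% without the filter, 0.0808% without mitochondrially encoded genes and 0.192% without DSS+CA 3. Gclc was not called with filterByExpr (0.0396% of all genes called higher), with the replicate block (0.141%) or when any of the other 7 libraries was left out.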

How the data were processed

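Libraries were made with a TruSeq Stranded Total RNA kit after extraction with RNeasy Micro columns, per the labels' protocols. Tools named, per the submitters' processing notes, are HISAT2 and StringTie, with the builds GRCm38 (mm10) and no versions. Which counter, annotation and strand setting made the counts is not given in the sources used here, so genes that share sequence or overlap may not be fully separated. Each deposited table lists raw counts next to FPKM, per the file headers. The authors' FPKM equals the count over a fixed gene length and the library total, within 1% for all 17718 genes with counts in 2 or more libraries.

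From the deposited counts, edgeR 4.0.16 (limma 3.58.1, R 4.3.3) was run as a two-sided quasi-likelihood test with libraries scaled by TMM and no term beside the group. It covered the 9913 genes with FPKM of at least 1 in at least 4 of 8 libraries, with Benjamini-Hochberg adjustment over all of them and a threshold of 0.05. The SE is the absolute log2 fold change over the root of F, so it is derived from the test. Levels of single genes are CPM scaled by TMM, with mean ± SD and n = 4, and FPKM was used for comparing genes. Summed marker levels are CPM on library totals, without TMM scaling. The common biological coefficient of variation was 0.416. DESeq2 1.42.0, other scalings and filters, left-out libraries, the replicate number as a block and a length term were the alternatives. Tables and plots used pandas 2.3.3, numpy 2.4.6, scipy 1.17.1 and matplotlib 3.10.9 under Python 3.11.15.

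The members and lists were chosen with earlier results of these data known. Values in every library are given for members past the threshold, members with non-overlapping groups and a fixed list of members. Other members are given by range or count, except that Hpgds, Srm, Gsta3 and the 3 ratios were singled out after their values were seen. In each other list, up to 3 tested genes with the smallest p are named, with Nfe2l2, Keap1, Bach1 and Slc7a11. Near-identical genes were found from 50-base words shared between GENCODE M21 transcripts, because no protein table was given. Promoter windows come from RefSeq on GRCm38.p6.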

Additional observations from a re-analysis of the deposited data

Results flagged for a closer look

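Of 64 groups of 4 libraries examined for named members, 5 held a library whose gap to the nearest other library, divided by the range of the group, exceeded Dixon's 95% critical value for 4 samples. Chance flags about 1 in 20 groups. Of these, 3 genes were set apart by DSS+CA 3: Mgst1 at 829 CPM and Mgst2 at 549 CPM were far above the other DSS+CA libraries, and Txnrd1 at 185 CPM was far below them. Gclm in DSS 1 stood at 85.4 CPM, above the other DSS libraries. Fth1 in DSS+CA 2 stood at 1460 CPM, above the other DSS+CA libraries. DSS+CA 3 is also 1 of the 3 libraries with short counted genes, and the part of that in these values was not tested.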

How the results depend on the processing

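The count of genes called moved with most settings. All 8 libraries with TMM scaling gave 4 higher and 9 lower in DSS+CA. RLE scaling gave 7 and 20, DESeq2 51 and 169, no filter 18 and 61, and leaving out mitochondrially encoded genes 8 and 19. Leaving out the 3 libraries of shortest counted genes gave 234 and 421, and the length term gave 294 and 324. Leaving out single libraries gave 0 to 19 higher and 4 to 65 lower, with both upper ends without DSS+CA 3. The labels do not say whether replicate numbers pair the samples. The deviations of same-numbered libraries from their group means had correlations of 0.77, -0.369, 0.104 and 0.215. DSS+CA 3 and DSS 2, with different numbers, had 0.756, so these correlations cannot settle whether the samples are paired. The replicate block gave 14 and 51, and 0 members called.

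Of the members, RLE scaling, no filter and leaving out mitochondrially encoded genes each called 1 higher (Gclc), DESeq2 called 3, the length term 7, and leaving out the 3 libraries called 12 higher and 1 lower. Leaving out single libraries called 0 to 2 higher (Gclc and Gstm3 without DSS+CA 3). The members' median log2 fold change stayed above 0, between 0.249 and 0.431, under every setting run. The strict ARE core was in 0% of member windows. Across these settings, 460 values of named members kept their sign and side of the threshold, 23 passed it and 29 changed sign.

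Among the named members with changes of sign, Ftl1 had log2 fold changes of 0.06 without the filter, 0.02 with filterByExpr, 0.08 with the replicate block, 0.33 without the 3 libraries and 0.02 with the length term. Anpep had 0.05 without the filter and 0.02 with filterByExpr. Gsto1 had 0.02 without the filter, 0.23 without the 3 libraries and 0.28 with the length term, where Gpx4 had 0.21 and 0.30. Ggt1 had 0.11 without the 3 libraries and Lap3 had 0.13 with the length term. With single libraries left out, the ranges were -0.21 to 0.36 for Ftl1, -0.24 to 0.26 for Anpep, -0.22 to 0.10 for Gsto1, -0.74 to 0.12 for Gpx4, -0.33 to 0.21 for Ggt1, -0.20 to 0.63 for Mgst2, -0.26 to 0.39 for Ggct and -0.01 to 0.59 for Mgst3. The causes were not tested.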
